A study of Mus musculus with 9 samples.

Results

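ST2 is a stromal cell line from mouse bone marrow, and the labels give its tissue as bone, its cell type as mesenchymal stem cell and its genotype as WT. The comparison is of cells kept for 72 h with 50 ng/ml recombinant human Wnt3a (rhWnt3a) and cells kept for 72 h with vehicle, 3 libraries of polyadenylated RNA in each group. It asks what the Wnt ligand alone does to gene expression in these cells. These 6 of the 9 libraries were chosen by treatment, all genes were taken, and the 3 libraries of cells given rhWnt3a with 20 µM OSMI entered the choice of genes to test, the average levels over 9 libraries and the estimate of the spread, but not the comparison. The deposited table counted reads for 54532 genes, of which 25792 had a count in at least 1 of the 6 libraries and 14004 had enough counts to be tested. Counts summed to 16417002, 16591815 and 17583945 with vehicle and 16811833, 17393439 and 17061946 with rhWnt3a. At this depth 3 counts in a library, used below as the floor of detection, equalled 0.170 to 0.191 CPM (counts per 1e6).

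Wnt proteins bind Frizzled receptors and the coreceptors LRP5 and LRP6 at the cell surface. In the canonical branch this stops the destruction of β-catenin, which enters the nucleus and turns on target genes together with TCF and LEF proteins, and several of these targets feed back to restrain the pathway. In marrow stromal cells the pathway is known for favouring bone formation over fat and cartilage formation.

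Stromal markers were abundant in both groups, and markers of other cell types were far lower, with epithelial, lymphoid and erythroid markers near the floor. Of 20 stromal markers 19 were tested, and the remaining Thy1 had at most 2 counts in a library. Their summed level was 65300, 75930 and 42250 CPM with vehicle and 61260, 33670 and 59930 with rhWnt3a, with fibronectin (Fn1) the most abundant. Per kilobase of gene length the mean level in vehicle was 2789 RPKM (CPM per kilobase) for Fn1, 1532 for the collagen gene Col1a1 and 160 for the PDGF receptor gene Pdgfrb. With rhWnt3a these means were 2560, 1061 and 155 RPKM. By the test described below, 3 of the 19 rose (Dcn, Twist1 and Prrx1, log2 fold changes 2.09, 1.04 and 0.88) and 4 fell (Cxcl12, Ly6a, Vim and Vcam1, −2.31, −1.53, −1.10 and −0.93), with a median of −0.15. Without vehicle 2 the call of Twist1 was lost (adjusted p = 0.0521 by edgeR). The summed level of 13 macrophage markers was 14.5, 15.0 and 21.6 CPM with vehicle and 8.64, 11.8 and 7.42 with rhWnt3a, with Cd14 the most abundant, and Ptprc and Adgre1 had at most 2 counts in a library. For 11 endothelial markers the sum was 3.91, 4.33 and 2.71 CPM with vehicle and 2.80, 1.59 and 3.17 with rhWnt3a, led by Vwf, and Cdh5 and Kdr had no count. No epithelial marker of 11 and no lymphoid or erythroid marker of 10 reached 10 counts in any library; the sums were at most 0.382 and 0.852 CPM, with Cdh1 and Alas2 the most abundant. Of 12 muscle markers, at 11.8, 15.6 and 14.1 CPM with vehicle and 1.89, 2.56 and 0.897 with rhWnt3a in sum, Tnnt1 and Tnnt3 alone were tested, and Myod1 and Ckm had no count. In bulk RNA, fewer cells of a type and less RNA per cell cannot be told apart.

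Vehicle replicate 3 and rhWnt3a replicate 2 stood apart from the other libraries. The mean squared log2 difference was 0.117 between vehicle replicates 1 and 2, but 0.454 and 0.392 between these and replicate 3. It was 0.111 between rhWnt3a replicates 1 and 3, and 0.411 and 0.373 between these and replicate 2. Of the variance within groups, 68.8% lay along 1 component that set these libraries against the other 4. The share of counts on Fn1 was 3.55%, 4.22% and 1.76% with vehicle and 3.77%, 1.39% and 3.67% with rhWnt3a, and that on 76 ribosomal protein genes was 2.43%, 2.70% and 3.22% with vehicle and 2.96%, 5.07% and 3.06% with rhWnt3a. The mean gene length, weighted by counts, was 6706, 6560 and 5684 with vehicle and 6689, 5486 and 6615 with rhWnt3a bases. Each group held 1 such library, called the apart pair below, and the part of RNA quality in these values was not tested.

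Exposure to rhWnt3a changed 1230 of the 14004 tested genes (8.78%), of which 409 rose (2.92%) and 821 fell (5.86%). Calls needed an adjusted p below 0.05 and a log2 fold change of more than 0.5 in either direction, from the quasi-likelihood F test of edgeR with Benjamini-Hochberg adjustment over all tested genes. The median log2 fold change of all tested genes was 0.04, with 7650 genes higher and 6354 lower. Among called genes, 212 rose and 584 fell by more than 2-fold, 80 rose and 229 fell by more than 4-fold, and 24 rose and 94 fell by more than 8-fold. Vehicle and rhWnt3a ranges were separate for 1229 of the 1230 called genes and for 3693 of all tested genes. Separate ranges given below for called genes thus go with the call and add no support. The study calls its replicates biological, while the labels do not say whether the libraries came from separate cultures, so p-values measure only the spread between these samples. An exact permutation of 3 against 3 libraries cannot give a p below 0.1, so the calls rest on the spread shared over genes. With vehicle 3 and rhWnt3a 2 both left out, 503 genes rose and 842 fell. Without vehicle 1, 2 or 3 the number called was 761, 717 and 1315, and without rhWnt3a 1, 2 or 3 it was 716, 1110 and 724. Rises numbered 242, 224 and 419 and then 246, 421 and 217, and falls 519, 493 and 896 and then 470, 689 and 507. In all 7 of these fits the genes called above kept their direction where they were tested. With ranges separate for 1229 of the 1230, leaving out a library could hardly reverse a direction, so this is no further support. Limma voom with quality weights called 2855 genes, 1194 higher and 1661 lower. A block for replicate number called 809, 233 higher and 576 lower.

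**Figure D1:**
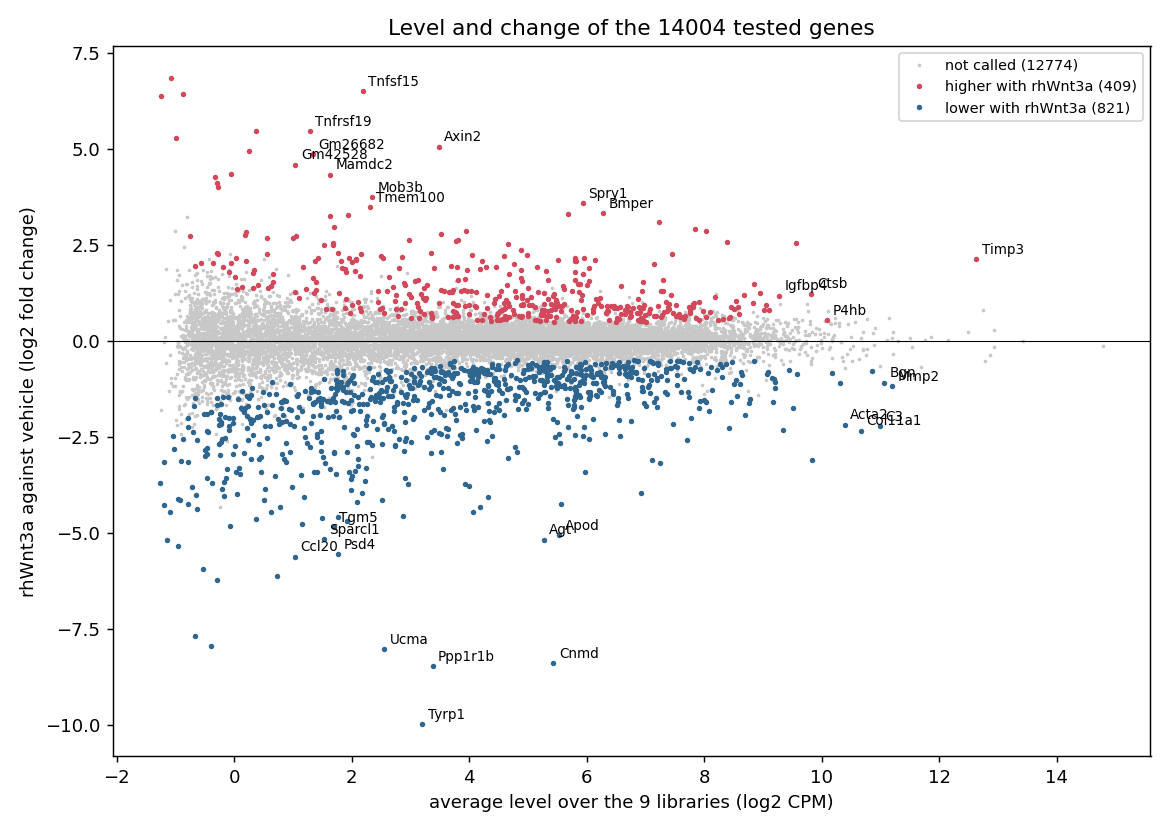
Each point is a tested gene, placed by its average level over the 9 libraries (log2 CPM, horizontal) and its log2 fold change with rhWnt3a against vehicle (vertical). The 409 genes that rose are red, the 821 that fell are blue and the rest are grey. Named are the 10 largest rises and falls and most of the largest changes in CPM; named falls reach −9.97 (Tyrp1) and named rises 6.51 (Tnfsf15).

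**Figure D2:**
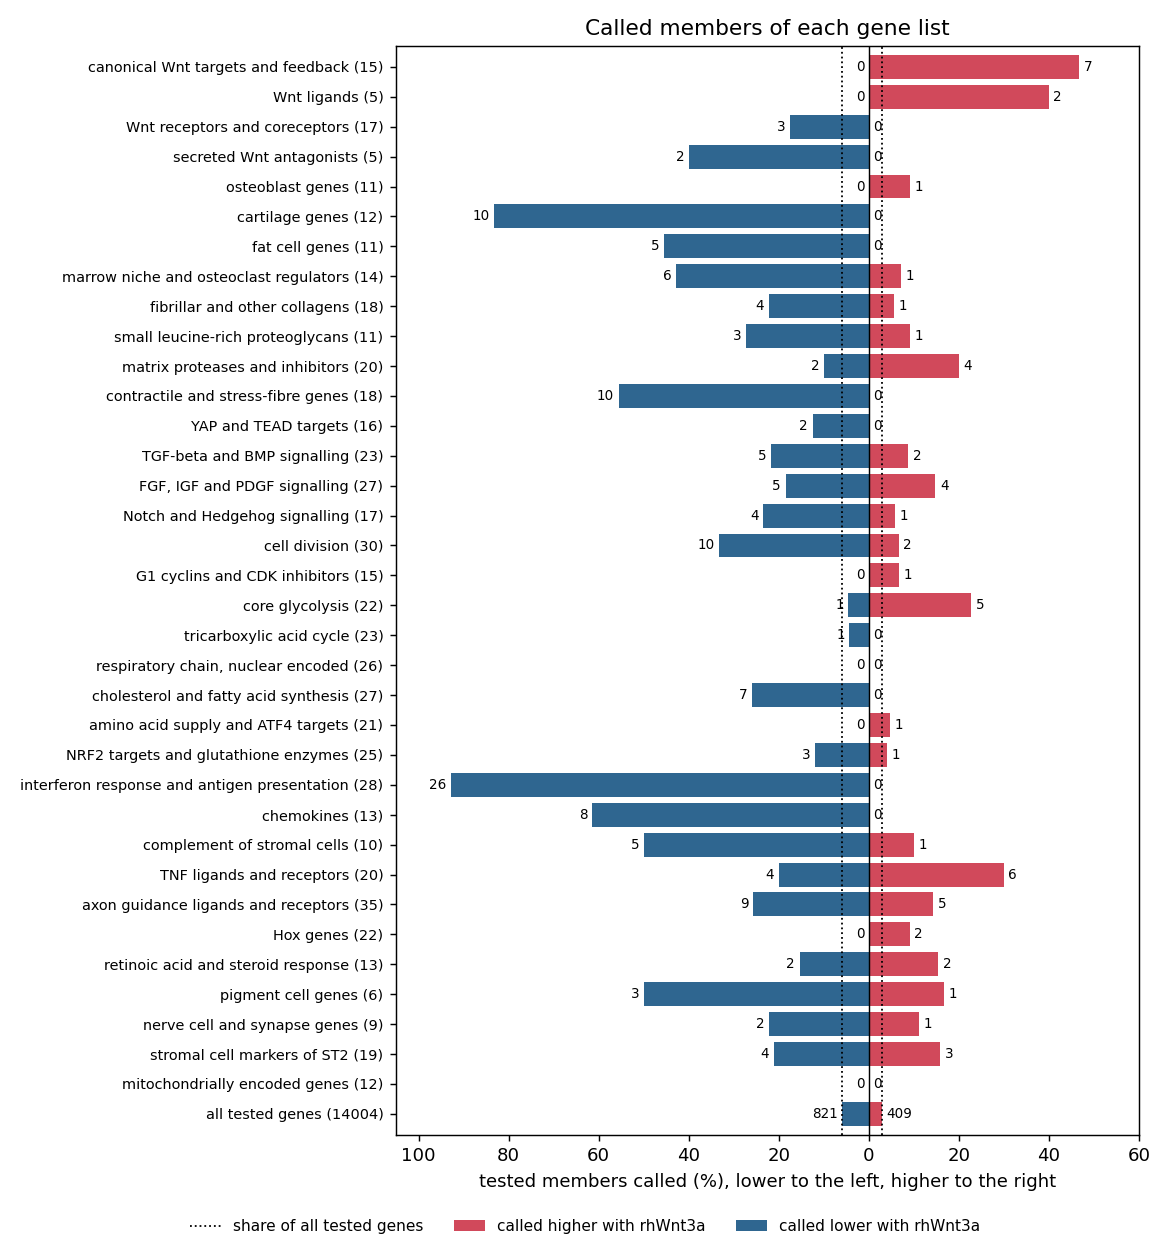
For each gene list, with its number of tested members in brackets, bars show the percentage of tested members that fell (left, blue) and rose (right, red) with rhWnt3a, with the number of genes at the end. Dotted lines mark the shares among all tested genes, 5.86% lower and 2.92% higher; 26 of 28 interferon genes and 10 of 12 cartilage genes fell.

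Of 20 canonical Wnt target and feedback genes 15 were tested, 7 rose and none fell, with a median log2 fold change of 1.28 against 0.04 over all tested genes. Gene lists here and below were chosen with earlier results of these data known, so their counts and medians are a description. Over all tested genes 2.92% rose and 5.86% fell, the shares to set beside each list. Axin2 (ENSMUSG00000000142, chr11:108920349-108950783), a scaffold of the complex that destroys β-catenin, had 4, 14 and 10 counts with vehicle and 355, 296 and 315 with rhWnt3a (log2 fold change 5.06, SE 0.35, adjusted p = 3.67e-05 by edgeR). Its 3 rhWnt3a libraries lay far above the 3 vehicle libraries. Lef1, a partner of β-catenin on DNA, had counts of 7, 6 and 13 with vehicle against 44, 39 and 46 (log2 fold change 2.28, SE 0.43, adjusted p = 0.00842). Tcf7, a related factor, was low in every library, with 1, 1 and 4 counts with vehicle and 13, 11 and 19 with rhWnt3a (log2 fold change 2.75, SE 0.56, adjusted p = 0.0130). For both factors the lowest rhWnt3a count exceeded the highest vehicle count. The cytoplasmic Wnt inhibitor Nkd2 (log2 fold change 1.31) and the matricellular genes Ccn4 (1.48) and Ccn5 (0.89) rose as well. Ccn4 counts were 487, 512 and 571 with vehicle and 1612, 1297 and 1535 with rhWnt3a, with no overlap. Notum, whose product removes a lipid from Wnt proteins, had 5, 3 and 8 counts with vehicle and 24, 25 and 31 with rhWnt3a but was not called (log2 fold change 2.28, adjusted p = 0.0672). Myc and Ccnd1, often cited as targets in other cells, had log2 fold changes of −0.02 and −0.15, with adjusted p = 0.981 and 0.732, and without vehicle 3, or without the apart pair, 1 gene of the list fell. With 1 library left out, the call was lost for Tcf7 without vehicle 1 or 2 or rhWnt3a 3 (adjusted p up to 0.0672) and Ccn5 without vehicle 1 or 2 (adjusted p up to 0.0767).

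Among the 5 tested Wnt ligands 2 rose. Wnt5a, a ligand best known outside the canonical branch, had 245, 242 and 290 counts with vehicle and 610, 437 and 623 with rhWnt3a (log2 fold change 1.08, SE 0.17, adjusted p = 0.00349 by edgeR). Wnt9a had 113, 108 and 122 counts with vehicle and 236, 241 and 252 with rhWnt3a (log2 fold change 1.06, SE 0.15, adjusted p = 0.00168). For both ligands the lowest rhWnt3a library was above the highest vehicle library, and Wnt3a itself had no count in any of the 6. Of 17 tested receptors and coreceptors 3 fell and none rose, with a median of −0.16 (−0.16 in the other 4 libraries, −0.30 in the apart pair). Fzd8 had 1935, 1913 and 1539 counts with vehicle and 683, 665 and 608 with rhWnt3a (log2 fold change −1.50, SE 0.19, adjusted p = 0.000948). Fzd6 had 248, 202 and 254 counts with vehicle and 147, 141 and 115 with rhWnt3a, and the low Fzd9 had 27, 39 and 22 against 9, 7 and 4 (log2 fold changes −0.83 and −2.16). The coreceptor Lrp5 had 2220, 2272 and 1488 counts with vehicle and 1152, 588 and 1192 with rhWnt3a and was not called (log2 fold change −1.06, adjusted p = 0.0702). Without vehicle 3, 6 receptors fell, as many as with both apart libraries left out, and without rhWnt3a 3 only 1 did. Among 5 tested secreted antagonists, Frzb and Sfrp1, which bind Wnt proteins outside the cell, fell. Sfrp1 had 18, 26 and 12 counts with vehicle and 3, 7 and 1 with rhWnt3a (log2 fold change −2.36, SE 0.61, adjusted p = 0.0378), and Frzb is described with the genes switched off. Without vehicle 1 or 2 or rhWnt3a 1 or 3, 1 antagonist was called. Leaving out 1 library ended the call for Fzd9 in each but that without vehicle 3 (adjusted p up to 0.105) and Fzd6 without rhWnt3a 3 (adjusted p up to 0.0594). The call was also lost for Sfrp1 without vehicle 1 or 2 or rhWnt3a 1 or 3 (adjusted p up to 0.170).

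The largest rise, of called genes whose average log2 CPM exceeded 1, was that of Tnfsf15 (ENSMUSG00000050395, chr4:63727084-63745113), which encodes a ligand of the TNF family. It had 6, 0 and 0 counts with vehicle and 217, 117 and 253 with rhWnt3a (log2 fold change 6.51, SE 0.76, adjusted p = 0.000569 by edgeR). Vehicle replicate 1 alone held counts among the vehicle libraries, and the log2 fold change was 10.61 without it and 5.91 at the lowest without another library. Next came Tnfrsf19 and Axin2, then Gm26682 and Gm42528, genes of the classes lincRNA and TEC of the annotation. Gm42528 had 1, 4 and 3 counts with vehicle and 62, 77 and 68 with rhWnt3a (log2 fold change 4.60, adjusted p = 0.000120). Mamdc2, a secreted proteoglycan gene, had counts of 5, 4 and 5 with vehicle against 107, 87 and 100, and Mob3b, of a family of kinase activators, 13, 7 and 20 against 192, 171 and 183 (log2 fold changes 4.33 and 3.74). Spry1, an inhibitor of signalling by receptor tyrosine kinases, had 75, 108 and 248 counts with vehicle and 1692, 1935 and 1618 with rhWnt3a (log2 fold change 3.60, SE 0.36, adjusted p = 0.000235). Vehicle replicate 3 was the highest of the vehicle libraries for Spry1, yet far below each rhWnt3a library. Tmem100, a transmembrane protein gene known from BMP signalling in vessels, had counts of 24, 13 and 10 with vehicle against 170, 230 and 148 (log2 fold change 3.49). Bmper, whose product binds BMPs outside the cell, had 164, 165 and 303 counts with vehicle and 2127, 2279 and 2040 with rhWnt3a (log2 fold change 3.34, SE 0.21, adjusted p = 1.95e-05). Timp3, Ctsb, Igfbp4 and P4hb were among the largest rises of called genes by size in CPM; genes on the opposite strand overlap 24.4% of Spry1 and 21.3% of Timp3, and their reads may be mixed. Timp3, a protease inhibitor held in the matrix, had 19701, 28645 and 33713 counts with vehicle and 140942, 85709 and 135406 with rhWnt3a (log2 fold change 2.13, SE 0.27, adjusted p = 0.000939). Ctsb, a lysosomal protease gene, had counts of 7680, 8064 and 10149 with vehicle against 18885, 23221 and 19809 (log2 fold change 1.23), and P4hb, a subunit of the enzyme that hydroxylates prolines of collagen, 17378, 16268 and 20670 against 24827, 31525 and 24743 (0.55). A fit short of 1 library lost the call for P4hb in each but that without vehicle 3 (adjusted p up to 0.160).

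Genes were taken as switched on where every vehicle library had at most 3 counts and every rhWnt3a library at least 20, and 5 genes met this; since the counts chose them, their values are a description. Ratios below are of summed counts scaled for library size, and their 95% intervals and floors cover counting error alone. Tnfrsf19 (ENSMUSG00000060548, chr14:60963875-61046490), a receptor of the TNF family and a listed Wnt target, went from 3, 2 and 1 counts to 98, 104 and 86, 47.1-fold higher (95% counting interval 21.4 to 129). Il33 (ENSMUSG00000024810, chr19:29925114-29960718), a cytokine of the interleukin-1 family, went from 1, 0 and 2 to 50, 41 and 59, 49.0-fold higher (95% counting interval 16.5 to 240). By the rule, no library of either gene crossed into the range of the other group. Gm26682 went from 3, 0 and 3 to 60, 76 and 53, 30.9-fold higher (95% counting interval 13.9 to 85.2). Slc2a13, a transporter of myo-inositol, went from 2, 2 and 0 to 45, 42 and 50, 33.6-fold higher (95% counting interval 12.8 to 125). Hormad2, a gene of meiotic chromosome axes, went from 0, 3 and 1 to 29, 38 and 24, 22.3-fold higher (95% counting interval 8.42 to 83.6). All 5 genes were among those called. With at most 1 count against at least 10, 3 other genes and none of these 5 met the rule (Cd33, F13a1 and Rarb). With counts scaled to a common total, Il33 and Slc2a13 met it and Tnfrsf19, Gm26682 and Hormad2 did not.

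The promoter of Tnfrsf19 is shown because Tnfrsf19, called higher, is 1 of 3 genes among the 12 of the Wnt target list with a promoter window that hold the sequence TCF and LEF proteins recognise. Windows of 300 bases, from 250 before to 50 after each start site in RefSeq (GRCm38.p6), were searched on both strands for CTTTGAT or CTTTGAA, and 8.65% of 32851 windows held a match. Windows were available for 286 of the genes that rose, 614 of those that fell and 8934 of tested genes not called, and 5.59%, 9.12% and 7.11% of these had a match, and the windows of Axin2, Lef1 and Tcf7 held none. A match is a description of the letters and not a binding site. The stretch lies on the minus strand at chr14:61038163-61038209, before 1 of its 2 start sites and inside the span of the gene in the deposited table, with the match in capitals.
Tnfrsf19: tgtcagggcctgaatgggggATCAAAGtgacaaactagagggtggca

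Falls reached further than rises. Tyrp1 (ENSMUSG00000005994, chr4:80834123-80851719), an enzyme gene of pigment granules, went from 465, 463 and 423 counts with vehicle to 0, 0 and 1 with rhWnt3a, 1378-fold lower (95% counting interval 247 to 54465). Ppp1r1b, the gene of a phosphatase inhibitor known from dopamine signalling, had 543, 577 and 392 counts with vehicle and 0, 0 and 4 with rhWnt3a (log2 fold change −8.47, SE 0.55, adjusted p = 2.67e-05 by edgeR). Cnmd (ENSMUSG00000022025, chr14:79637690-79662170), which encodes chondromodulin of cartilage, had 2144, 2089 and 2147 counts with vehicle and 11, 8 and 0 with rhWnt3a (log2 fold change −8.39, SE 0.47, adjusted p = 1.31e-05). For these 3 genes at least 1 rhWnt3a library had no count, while no vehicle library had fewer than 392. Psd4, an exchange factor gene of small ARF GTPases, had counts of 195, 163 and 116 with vehicle against 3, 1 and 6 (log2 fold change −5.55). Agt (ENSMUSG00000031980, chr8:124556534-124569706), which encodes angiotensinogen, had 1731, 1848 and 1847 counts with vehicle and 50, 56 and 47 with rhWnt3a (log2 fold change −5.18, SE 0.18, adjusted p = 8.74e-07). Its libraries were nearly equal within each group. Apod, of the lipocalin apolipoprotein D, had counts of 2008, 2425 and 2141 with vehicle against 33, 111 and 59 (log2 fold change −5.06, SE 0.39, adjusted p = 6.09e-05). Sparcl1, a matricellular gene, had 150, 104 and 145 counts with vehicle and 0, 3 and 8 with rhWnt3a, and Tgm5, a transglutaminase gene, 197, 151 and 79 against 4, 4 and 7 (log2 fold changes −5.16 and −4.84). With 1 library left out, the log2 fold change ranged from −12.01 to −7.90 for Ppp1r1b and from −6.39 to −4.575 for Sparcl1. By size in CPM, Col11a1, C3, Mmp2, Bgn and Acta2 fell most among called genes. C3, the central complement component, had 59895, 64148 and 50500 counts with vehicle and 14684, 8956 and 14634 with rhWnt3a (log2 fold change −2.22, SE 0.27, adjusted p = 0.000631), and the others are given with their lists.

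Switched off by the reverse rule were 9 genes, all of them called. Ucma, a matrix protein gene of cartilage, went from 300, 321 and 232 counts to 0, 2 and 1, 290-fold lower (95% counting interval 98.9 to 1409). Ccl20, a chemokine gene, went from 85, 76 and 99 to 2, 0 and 3, 53.0-fold lower (95% counting interval 22.4 to 165). Scrg1, a gene of a small secreted protein, went from 81, 95 and 49 to 1, 1 and 1, 76.5-fold lower (95% counting interval 25.8 to 374). In all 3 the lowest vehicle library was more than 10-fold above the highest rhWnt3a library. Ifitm1, an interferon-induced membrane protein gene with a near-identical copy over 36.2% of its length, went from 54, 56 and 44 to 2, 1 and 3, 26.2-fold lower (95% counting interval 11.8 to 72.4). Cldn19, of tight junctions, went from 45, 46 and 28 to 1, 3 and 0 (30.3-fold, interval 11.5 to 113), and Cntn1, a cell adhesion gene of neurons, from 28, 36 and 38 to 2, 3 and 1 (17.3-fold, interval 7.70 to 48.4). By the rule, these 3 genes had no more than 3 counts in any rhWnt3a library. The Wnt antagonist Frzb (ENSMUSG00000027004, chr2:80411970-80447625) went from 26, 41 and 33 to 0, 1 and 0, 102-fold lower (95% counting interval 17.9 to 4068). Gm13411, a lincRNA gene, had 33, 35 and 22 counts with vehicle and none with rhWnt3a, and was at least 10.3-fold lower, taking 3 counts per library as the floor. Tyrp1 is the remaining member. Without rhWnt3a 1 or 3 the rule gave 14 and 15 genes, and with at most 5 counts against at least 50 it gave 5.

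**Figure D3:**
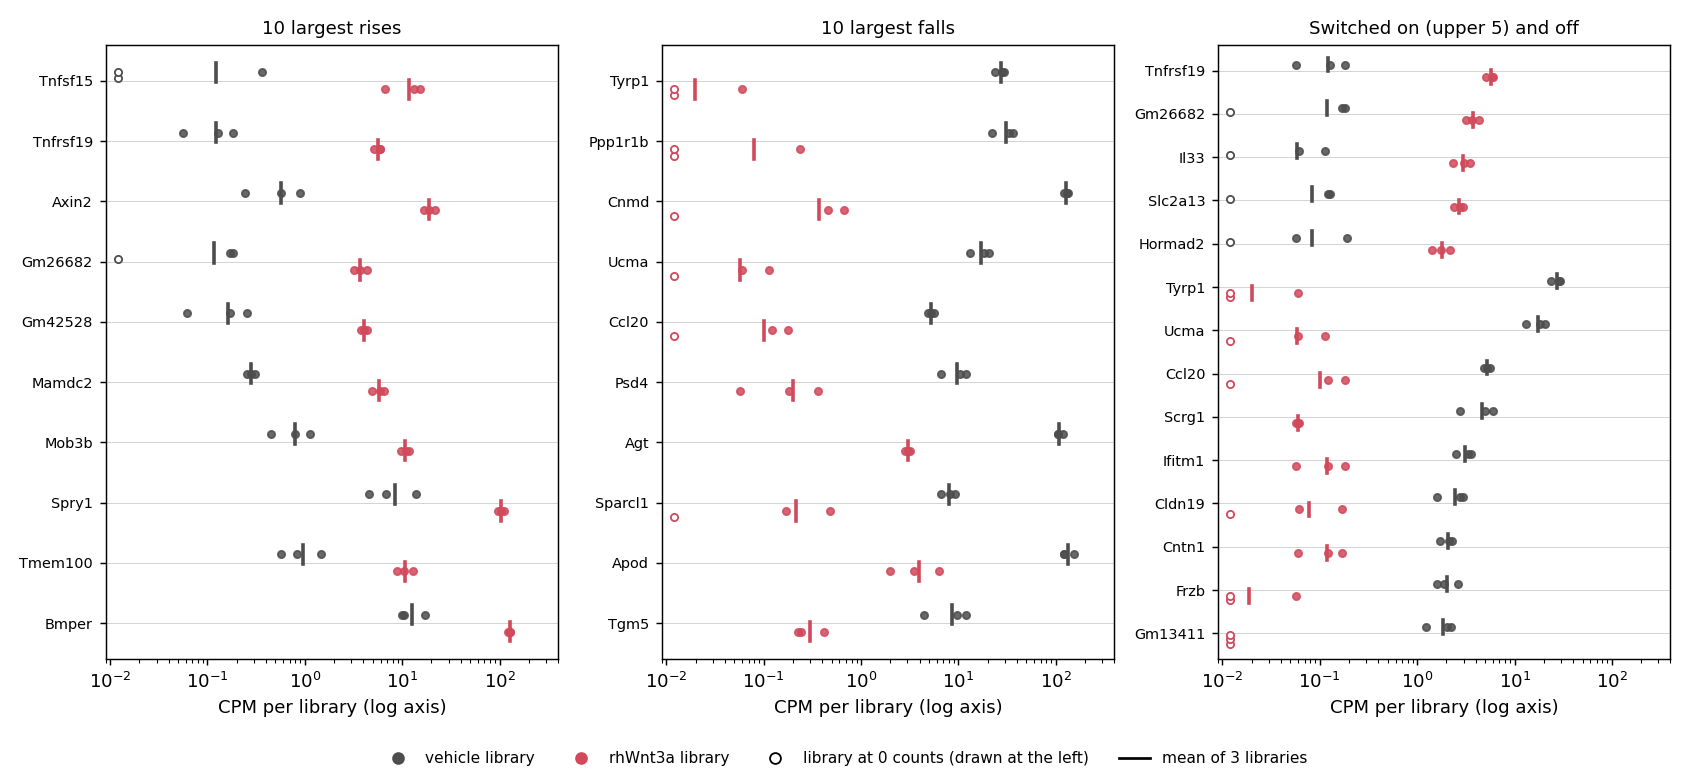
CPM in each library on a log axis for the 10 largest rises, the 10 largest falls and the genes switched on (upper 5) or off (lower 9); grey points are vehicle libraries, red points rhWnt3a libraries, and short lines the mean of 3. Open points at the left stand for libraries with no count. The rules that chose these genes required that the vehicle and rhWnt3a libraries do not overlap.

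Cartilage genes fell together: of 22 listed 12 were tested, 10 fell and none rose, with a median log2 fold change of −2.42 against 0.04 over all tested genes. The median was −2.52 in the other 4 libraries and −2.14 in the apart pair, and 9 fell with the apart pair left out. Col2a1 (ENSMUSG00000022483, chr15:97975602-98004695), the main collagen gene of cartilage, had 2915, 2927 and 2217 counts with vehicle and 273, 245 and 263 with rhWnt3a (log2 fold change −3.40, SE 0.19, adjusted p = 1.17e-05 by edgeR). Hapln1, which links hyaluronan to proteoglycans, had counts of 260, 221 and 133 with vehicle against 11, 21 and 18 (log2 fold change −3.66, SE 0.41, adjusted p = 0.000457). Col9a1 went from 100, 99 and 125 to 6, 16 and 9, and the abundant Col11a1 from 63739, 61764 and 48123 to 11587, 11375 and 12275 (log2 fold changes −3.40 and −2.34). The rhWnt3a libraries of each of these genes lay below every vehicle library. Sox9, the factor that drives cartilage formation, had 3061, 3463 and 2843 counts with vehicle and 1692, 1387 and 1703 with rhWnt3a (log2 fold change −1.003, SE 0.22, adjusted p = 0.0205), and its partner Sox6 413, 387 and 216 against 87, 45 and 68 (log2 fold change −2.38, adjusted p = 0.00169). Comp, a matrix gene of cartilage and tendon, and Col9a3 fell by 2.41 and 1.39 on the log2 scale. Col11a2 was level at a log2 fold change of 0.01 (adjusted p = 0.991), and Acan, which encodes aggrecan, had at most 12 counts and was not tested. In fits that left out 1 library, the call was lost for Sox9 in each but that without vehicle 3 (adjusted p up to 0.0960) and Col9a3 in each such fit (adjusted p up to 0.174). Without the apart pair, no call was made for Sox9 and Col9a3 (adjusted p = 0.0511 and 0.0611).

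Of 21 osteoblast genes 11 were tested and Phospho1, a phosphatase gene of mineralising cells, alone was called, while 9 were lower and 2 higher, with a median of −0.35. This rise was 9.09% of the tested members, against 2.92% of all tested genes. Phospho1 had 3, 3 and 6 counts with vehicle and 22, 15 and 14 with rhWnt3a (log2 fold change 2.04, SE 0.53, adjusted p = 0.0399 by edgeR), but exons of other genes cover 89.6% of it on its own strand, so its reads are uncertain, and the call was lost with any library left out (adjusted p up to 0.162) and without the apart pair (0.0626). Runx2, which directs osteoblast formation, had 904, 909 and 787 counts with vehicle and 1024, 799 and 1061 with rhWnt3a (log2 fold change 0.12, adjusted p = 0.830). Spp1, which encodes osteopontin, had counts of 27695, 30948 and 47915 with vehicle against 20945, 31966 and 22111 (log2 fold change −0.53, adjusted p = 0.291), with overlap between groups. Alpl, Bglap, Sp7 and Ibsp, markers of the osteoblast lineage, had at most 8 counts in any of the 6 libraries and were not tested.

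Of 20 fat cell genes 11 were tested, 5 fell and none rose, with a median of −0.82, −0.58 in the other 4 libraries and −1.10 in the apart pair. Pparg, the factor that drives fat cell formation, had 356, 368 and 476 counts with vehicle and 119, 135 and 114 with rhWnt3a (log2 fold change −1.73, SE 0.14, adjusted p = 8.80e-05 by edgeR). Fabp4, a fatty acid carrier gene, had counts of 331, 380 and 423 with vehicle against 56, 93 and 58 (log2 fold change −2.49, SE 0.32, adjusted p = 0.000972). Plin4, of the lipid droplet coat, had 4020, 3645 and 2229 counts with vehicle and 637, 478 and 711 with rhWnt3a (log2 fold change −2.48, SE 0.28, adjusted p = 0.000438). In all 3 the highest rhWnt3a library was below the lowest vehicle library. Lpl, a lipase gene, and G0s2, an inhibitor of lipolysis, fell as well, with log2 fold changes of −2.58 and −1.49. Cebpa, a partner of Pparg, had 350, 391 and 553 counts with vehicle and 363, 541 and 444 with rhWnt3a and a log2 fold change of 0.03 (adjusted p = 0.952), and Adipoq had no count. Without rhWnt3a 3, 3 fat cell genes fell. When 1 library was left out, the call was lost for Lpl without vehicle 1 or rhWnt3a 3 (adjusted p up to 0.0736) and G0s2 without rhWnt3a 1 or 3 (adjusted p up to 0.0666). With the apart pair left out, the call was lost for Lpl (adjusted p = 0.0653).

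Of 18 tested contractile and stress-fibre genes 10 fell and none rose, with a median of −0.93, against −1.01 in the other 4 libraries and −0.91 in the apart pair. Acta2 (ENSMUSG00000035783, chr19:34241090-34255336), which encodes smooth muscle actin, had 36576, 41238 and 46582 counts with vehicle and 8319, 11790 and 8028 with rhWnt3a (log2 fold change −2.18, SE 0.27, adjusted p = 0.000871 by edgeR). Cnn1, of the actin-binding calponin, had counts of 52, 65 and 60 with vehicle against 3, 5 and 2 (log2 fold change −4.13, SE 0.55, adjusted p = 0.00121). Acta1, a further actin gene, went from 12, 29 and 41 to 3, 0 and 3, and Lmod1, which nucleates actin filaments, from 333, 334 and 281 to 52, 70 and 61 (log2 fold changes −3.70 and −2.41), and the counting ratio of Acta1 was 13.9 (95% interval 6.14 to 39.1). All rhWnt3a libraries of these genes were below all vehicle libraries. The myosin light chain gene Myl9, the actin gene Actg2 and the tropomyosin gene Tpm1 also fell, by 1.66, 2.02 and 0.96 on the log2 scale. The remaining falls were those of Tagln, Smtn and Mylk, and 67.9% of Tagln is overlapped by exons of genes on the opposite strand. Of 16 targets of YAP and TEAD, factors that read out tension in the cytoskeleton, Axl and Wwc1 fell and none rose, and the median was 0.06, 0.10 in the other 4 libraries and −0.05 in the apart pair. Wwc1 had counts of 258, 249 and 170 with vehicle against 65, 51 and 76 (log2 fold change −1.85, adjusted p = 0.00223), whereas the widely used targets Ccn1 and Ccn2 had log2 fold changes of 0.29 and −0.47 and were not called. With any library other than vehicle 3 left out, 1 of these targets was called. The muscle markers Tnnt1 and Tnnt3, troponin genes, fell from 132, 190 and 213 to 21, 30 and 6 and from 42, 39 and 26 to 5, 3 and 1, with no count of Myod1 in any library. With 1 library left out, the call was lost for Tagln without rhWnt3a 1 or 3 (adjusted p up to 0.0621) and Smtn, Mylk and Axl in each but that without vehicle 3 (adjusted p up to 0.136, 0.0890 and 0.105). Leaving out the apart pair ended the call for Tagln (adjusted p = 0.0503).

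**Figure D4:**
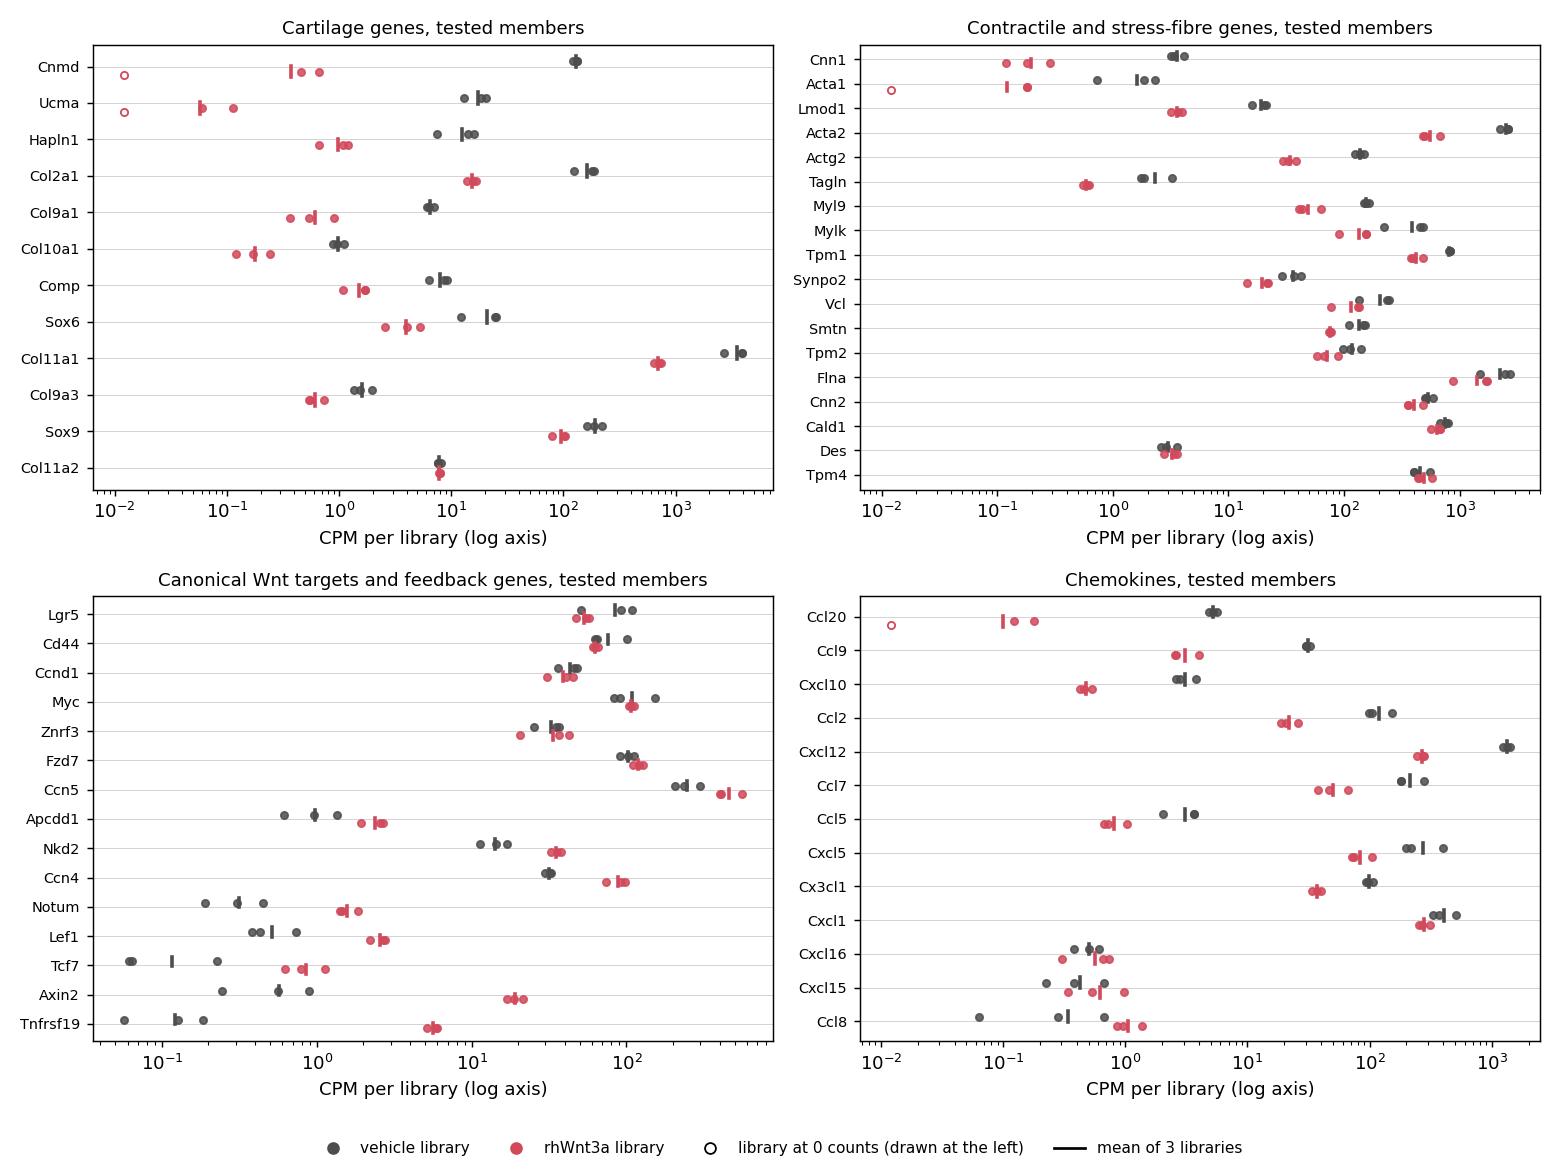
CPM in each library on a log axis for the tested members of 4 lists, ordered by log2 fold change; grey points are vehicle libraries, red points rhWnt3a libraries, short lines the mean of 3, and open points libraries with no count. Called lower were 10 of 12 cartilage genes, 10 of 18 contractile genes and 8 of 13 chemokines, and called higher 7 of 15 Wnt targets.

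Matrix genes split between rises and falls. Of 18 tested collagens 4 fell and Col8a1 rose, with a median of −0.50. Col8a1, a short-chain collagen, had 3599, 3437 and 3787 counts with vehicle and 8172, 9096 and 8265 with rhWnt3a (log2 fold change 1.21, SE 0.16, adjusted p = 0.00128 by edgeR), while the basement membrane collagen Col4a1 had counts of 15494, 16077 and 13921 with vehicle against 7041, 5576 and 7328 (log2 fold change −1.22, SE 0.22, adjusted p = 0.00657). The groups did not overlap in either gene, in opposite directions. Col27a1, of cartilage and tendon, went from 365, 331 and 168 to 77, 61 and 87 (log2 fold change −1.98), and Col4a2 and Col8a2 fell by 0.85 and 1.84 on the log2 scale. With any library other than vehicle 3 left out, 2 collagens fell. Among 11 tested small leucine-rich proteoglycans, Dcn rose and Bgn, Aspn and Ecm2 fell. Dcn, which encodes decorin, had 186, 125 and 203 counts with vehicle and 666, 851 and 715 with rhWnt3a (log2 fold change 2.09, SE 0.17, adjusted p = 8.68e-05), and Bgn, of the related biglycan, 61160, 68443 and 56185 against 30719, 28387 and 30384 (log2 fold change −1.09, SE 0.18, adjusted p = 0.00460). Aspn, of asporin, went from 180, 150 and 73 to 16, 21 and 18 (log2 fold change −2.92). The median of this list was −0.65 in the other 4 libraries but 0.17 in the apart pair. Among 20 tested proteases and inhibitors, Timp3, Mmp3, Mmp13 and Adamts5 rose and Mmp2 and Timp4 fell. Mmp13, the collagenase of cartilage and bone, had 1347, 1349 and 2319 counts with vehicle and 4606, 5775 and 4925 with rhWnt3a (log2 fold change 1.59, SE 0.20, adjusted p = 0.000860). Mmp3, of stromelysin, had counts of 48, 44 and 70 with vehicle against 195, 296 and 264 (log2 fold change 2.19, SE 0.25, adjusted p = 0.000451), and Mmp2, a gelatinase gene, 68235, 74490 and 71728 against 31133, 33460 and 32533 (log2 fold change −1.18, SE 0.20, adjusted p = 0.00544). For these 3 proteases each rhWnt3a library was outside the vehicle range. Timp4 went from 26, 19 and 17 counts to 1, 0 and 2, with a counting ratio of 21.1 (95% interval 6.89 to 105). Leaving out 1 library ended the call for Col4a2 in each but that without vehicle 3 (adjusted p up to 0.170) and Col8a2 in each such fit (adjusted p up to 0.141). Likewise it was lost for Adamts5 in each but that without rhWnt3a 2 (adjusted p up to 0.138). Without the apart pair, no call was made for Col8a2 (adjusted p = 0.0866).

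Among lists with at least 10 tested members, the highest share of calls was that of the interferon response and antigen presentation, where 26 of 28 genes fell and none rose. The lists were chosen with earlier results of these data known, so this rank is a description. Its median log2 fold change was −1.93 against 0.04 over all tested genes, −1.98 in the other 4 libraries and −1.59 in the apart pair. The summed level of the 28 genes was 4037, 4528 and 3963 CPM with vehicle and 1164, 1579 and 1326 with rhWnt3a, with B2m the most abundant. Every vehicle library was thus above every rhWnt3a library. Genes of this list are switched on by interferons through factors that include STAT2 and IRF9, and serve defence against viruses and display of antigens. Ifit3 (ENSMUSG00000074896, chr19:34583531-34588731), an inhibitor of viral translation, had 4960, 5225 and 4063 counts with vehicle and 229, 313 and 405 with rhWnt3a (log2 fold change −3.95, SE 0.29, adjusted p = 4.24e-05 by edgeR). The related Ifit1 had counts of 5327, 5059 and 4680 with vehicle against 503, 609 and 686 (log2 fold change −3.10, SE 0.42, adjusted p = 0.00124). Neither gene had a rhWnt3a library near the vehicle range. Mx1, a GTPase gene that blocks viruses, had 70, 62 and 45 counts with vehicle and 4, 2 and 2 with rhWnt3a (log2 fold change −4.44, SE 0.81, adjusted p = 0.00704). Rsad2, the gene of viperin, had counts of 135, 99 and 107 with vehicle against 8, 12 and 18 (log2 fold change −3.18, SE 0.75, adjusted p = 0.0249). Both were again low in all 3 rhWnt3a libraries. The transcription factor genes fell too, with Irf7 from 733, 766 and 589 to 95, 151 and 144 and Irf9 from 1817, 1795 and 1951 to 594, 773 and 683 (log2 fold changes −2.46 and −1.47). So did H2-K1 and H2-D1, of class I antigen display (−2.42 and −1.43), the peptide transporter genes Tap1 and Tap2 (−1.26 and −0.75) and the light chain gene B2m (−0.98). Irf1 and Psmb8 were not called, with log2 fold changes of −0.43 and −1.10 (adjusted p = 0.119 and 0.0755). Over 97.4% of Ifit3 and 100% of Oas1a a near-identical copy exists (Ifit3b and Oas1g), so the counts of these genes are uncertain. The number that fell was 18 without rhWnt3a 1, the lowest with any library left out. A fit short of 1 library lost the call for Rsad2 in each but that without vehicle 3 (adjusted p up to 0.112) and Tap2 without vehicle 2 or rhWnt3a 1 or 3 (adjusted p up to 0.0715). It was further lost for B2m in each but that without rhWnt3a 2 (adjusted p up to 0.183). With the apart pair left out, the call was lost for Rsad2 (adjusted p = 0.0786).

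**Figure D5:**
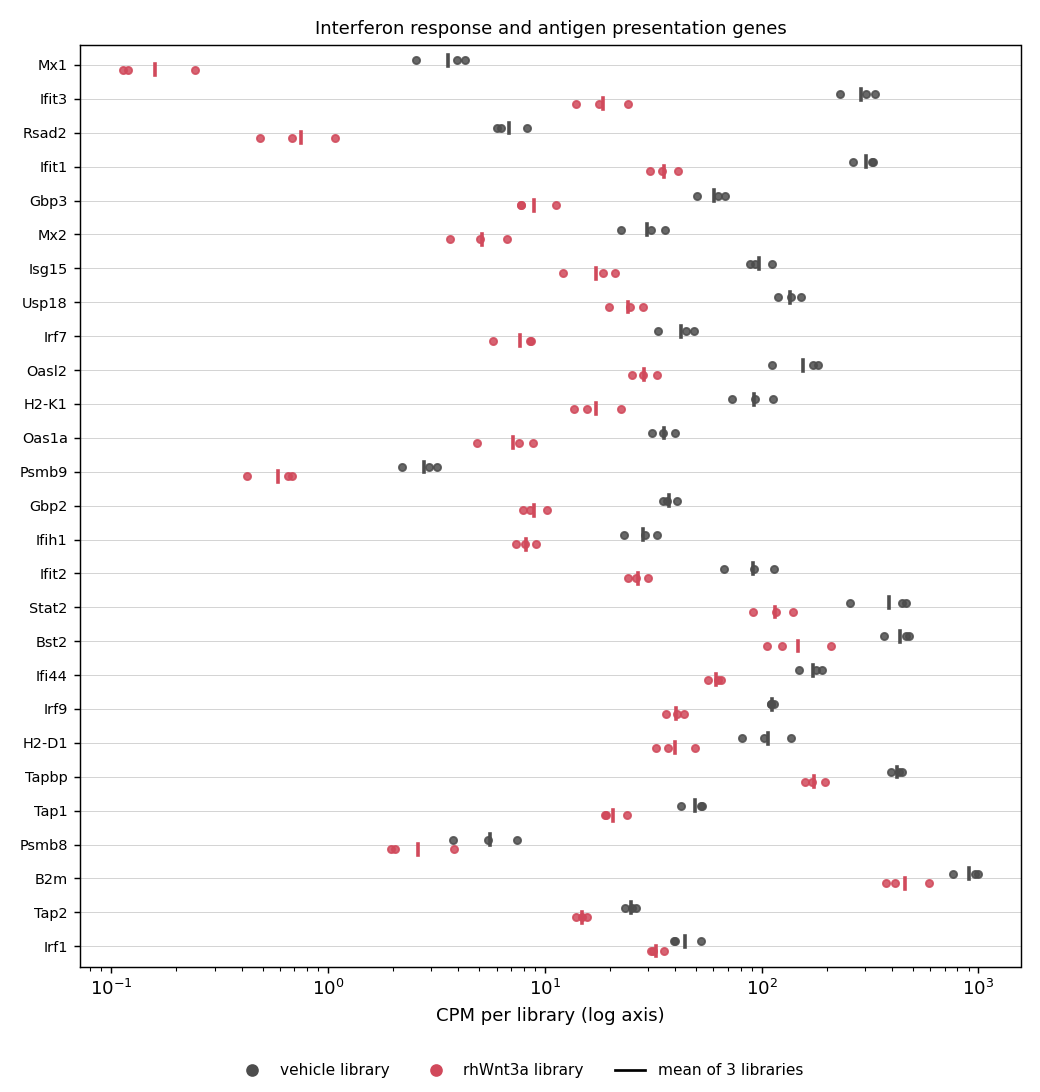
CPM in each library on a log axis for 27 of the 28 genes of the interferon response and antigen presentation list, ordered by log2 fold change; grey points are vehicle libraries, red points rhWnt3a libraries and short lines the mean of 3. All genes shown but Psmb8 and Irf1 were called lower with rhWnt3a.

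Promoters of this list are shown because its members moved together. RefSeq windows of 300 bases were available for 23 of the 28 genes, and 11 of them (47.8%) held GAAA, then any 2 bases, then GAAA on either strand, a core of the sequence that interferon-activated factors bind. Of all 32851 windows 3.44% held it. Among tested genes with a window it was found for 3.76%. The share was 11.2% for those that fell, 4.20% for those that rose and 3.24% for those not called. Upstream stretches of 6 members follow (RefSeq, GRCm38.p6), all before the start site, with the matches in capitals and overlapping matches run together; a match is not a binding site. The stretches lie at chr19:34640765-34640833 on the plus strand (Ifit1), chr19:34583353-34583436 on the plus strand (Ifit3), chr4:156200855-156200916 on the minus strand (Isg15) and chr12:26456543-26456592 on the minus strand (Rsad2). Those of Stat2 and B2m lie on the plus strand at chr10:128270256-128270305 and chr2:122147528-122147577.
Ifit1: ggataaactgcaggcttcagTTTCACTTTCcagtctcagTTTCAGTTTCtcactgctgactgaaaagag
Ifit3: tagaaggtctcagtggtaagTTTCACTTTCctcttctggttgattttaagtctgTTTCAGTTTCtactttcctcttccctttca
Isg15: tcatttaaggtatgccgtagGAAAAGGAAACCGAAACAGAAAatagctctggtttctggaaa
Rsad2: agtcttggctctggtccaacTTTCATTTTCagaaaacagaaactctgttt
Stat2: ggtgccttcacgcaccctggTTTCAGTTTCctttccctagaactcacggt
B2m: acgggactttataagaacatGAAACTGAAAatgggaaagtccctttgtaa

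Beside the stretches, Isg15, of a ubiquitin-like modifier, had 1523, 1758 and 1557 counts with vehicle and 199, 371 and 311 with rhWnt3a (log2 fold change −2.50, SE 0.23, adjusted p = 0.000166 by edgeR), and Stat2 7259, 7300 and 4514 against 1922, 1600 and 2337 (log2 fold change −1.74, SE 0.38, adjusted p = 0.0180). B2m had 12505, 15074 and 17558 counts with vehicle and 6183, 10357 and 6878 with rhWnt3a (log2 fold change −0.98, SE 0.25, adjusted p = 0.0395). The groups did not overlap in any of these genes, and vehicle replicate 3 was the lowest vehicle library for Stat2 and the highest for B2m. In fits that left out 1 library, the call was lost for Stat2 without vehicle 1 or 2 or rhWnt3a 1 or 2 (adjusted p up to 0.0770).

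Of 13 tested chemokines 8 fell and none rose, with a median of −1.94. Cxcl12 (ENSMUSG00000061353, chr6:117168535-117181367), the chemokine with which marrow stroma holds blood stem cells, had 22899, 20770 and 22054 counts with vehicle and 4511, 4319 and 4659 with rhWnt3a (log2 fold change −2.31, SE 0.14, adjusted p = 1.64e-05 by edgeR). Ccl9 had counts of 497, 472 and 577 with vehicle against 43, 70 and 43 (log2 fold change −3.34, SE 0.23, adjusted p = 3.30e-05), and Ccl2, which attracts monocytes, 1628, 1648 and 2688 against 312, 456 and 345 (log2 fold change −2.44, SE 0.20, adjusted p = 8.71e-05). Every rhWnt3a library of these was below every vehicle library. Ccl7, Cxcl5, Cx3cl1, Cxcl10 and the switched-off Ccl20 completed the falls, with log2 fold changes of −2.08, −1.71, −1.42 and −2.68 for the former 4. Of 14 tested genes for the blood stem cell niche and osteoclast control 6 fell and Lif rose, with a median of −0.87. Kitl, the ligand of the KIT receptor on blood progenitors, had 6279, 5188 and 5577 counts with vehicle and 1262, 1358 and 1264 with rhWnt3a (log2 fold change −2.16, SE 0.15, adjusted p = 3.62e-05). Il7, a growth factor gene for lymphoid progenitors, had counts of 28, 31 and 23 with vehicle against 4, 5 and 5 (log2 fold change −2.56, SE 0.45, adjusted p = 0.00588). Lif, a cytokine gene of the interleukin-6 family, had 70, 86 and 120 counts with vehicle and 335, 351 and 399 with rhWnt3a (log2 fold change 1.95, SE 0.21, adjusted p = 0.000333), the reverse order of groups. Tnfrsf11b, which encodes the osteoclast inhibitor osteoprotegerin, had counts of 1852, 1931 and 1942 with vehicle against 755, 926 and 733 (log2 fold change −1.28, SE 0.14, adjusted p = 0.000388), and Tnfsf11, the ligand it blocks, had no count. Vcam1 and Angpt1 fell by 0.93 and 0.88 on the log2 scale, while Csf1, which macrophages need, had 8625, 10341 and 15067 counts with vehicle and 11024, 9721 and 11108 with rhWnt3a (log2 fold change −0.11, adjusted p = 0.848). When 1 library was left out, the call was lost for Cxcl10 without vehicle 1 or rhWnt3a 1 or 3 (adjusted p up to 0.0677) and Angpt1 in each but that without vehicle 3 (adjusted p up to 0.115). Leaving out the apart pair ended the call for Angpt1 (adjusted p = 0.0521).

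Complement genes of stromal cells were called in both directions, 5 lower and 1 higher of 10 tested. Clu (ENSMUSG00000022037, chr14:65968483-65981547), of clusterin, had 631, 631 and 953 counts with vehicle and 23, 46 and 33 with rhWnt3a (log2 fold change −4.46, SE 0.30, adjusted p = 3.16e-05 by edgeR). C4b went from 404, 406 and 295 to 100, 88 and 113 (log2 fold change −1.91), and the proteases C1s1 and C1ra fell by 0.74 and 0.51 on the log2 scale, with 81.5% of C1ra nearly identical to C1rb. Clu, C3 and C4b were thus low in each rhWnt3a library. Among 20 tested TNF ligands and receptors 6 rose and 4 fell. Beside Tnfsf15 and Tnfrsf19, the ligand Tnfsf9 had 45, 46 and 93 counts with vehicle and 150, 249 and 192 with rhWnt3a (log2 fold change 1.66, SE 0.27, adjusted p = 0.00404), and the receptor Eda2r 276, 265 and 384 against 844, 672 and 934 (log2 fold change 1.39, SE 0.21, adjusted p = 0.00277). Edar, the receptor of ectodysplasin in skin appendages, had counts of 124, 92 and 85 with vehicle against 13, 14 and 11 (log2 fold change −3.01, SE 0.32, adjusted p = 0.000319). Eda, its ligand, and Fas, a receptor of cell death, fell by 1.21 and 0.86 on the log2 scale. Without vehicle 1 or any of the rhWnt3a libraries, 2 of the TNF genes fell. With 1 library left out, the call was lost for C1ra and Eda in each but that without vehicle 3 (adjusted p up to 0.122 and 0.0962) and Fas in each but that without vehicle 2 (adjusted p up to 0.174). Without the apart pair, no call was made for Fas (adjusted p = 0.107).

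Of 23 tested genes of TGF-β and BMP signalling 2 rose (8.7%) and 5 fell (21.7%), against 2.92% and 5.86% of all tested genes. Tgfbr2 (ENSMUSG00000032440, chr9:116084293-116175360), the receptor that binds TGF-β, had 1545, 1533 and 1525 counts with vehicle and 9679, 8416 and 9793 with rhWnt3a (log2 fold change 2.57, SE 0.19, adjusted p = 4.24e-05 by edgeR), and the ligand Tgfb3 861, 805 and 834 against 1772, 1740 and 1985 (log2 fold change 1.11, SE 0.22, adjusted p = 0.00977). Each rhWnt3a library was above the vehicle range in both. Id3 and Id4, inhibitors of bHLH factors that BMP signals induce, had 569, 507 and 729 and 62, 82 and 94 counts with vehicle against 109, 182 and 135 and 4, 7 and 6 (log2 fold changes −2.11 and −3.81), in the opposite direction. Id1 and Id2, of the same family, had log2 fold changes of −0.93 and −0.32 and were not called (adjusted p = 0.258 and 0.728). Fst, the activin-binding follistatin, had counts of 1693, 1541 and 1757 with vehicle against 475, 663 and 406 (log2 fold change −1.73, SE 0.18, adjusted p = 0.000293), and Bmp6 had 27, 26 and 22 against 4, 8 and 3 (log2 fold change −2.33, adjusted p = 0.0113). Without vehicle 2 or rhWnt3a 1 or 3, 3 of these genes fell. Among 27 tested genes of FGF, IGF and PDGF signalling 4 rose (14.8%) and 5 fell (18.5%), against 2.92% and 5.86% of all tested genes. Fgf2 had 40, 29 and 25 counts with vehicle and 159, 140 and 146 with rhWnt3a (log2 fold change 2.21, SE 0.29, adjusted p = 0.00102), while Fgf10 had counts of 87, 64 and 71 with vehicle against 9, 17 and 10 (log2 fold change −2.65, SE 0.32, adjusted p = 0.000635). Fgf7, its receptor gene Fgfr2 and the ERK phosphatase gene Dusp6 fell by 1.34, 0.99 and 1.15 on the log2 scale. Pdgfc had counts of 167, 173 and 311 with vehicle against 705, 841 and 675 (log2 fold change 1.75, SE 0.21, adjusted p = 0.000676), and Pdgfb 33, 30 and 15 against 3, 2 and 6 (log2 fold change −2.83, SE 0.57, adjusted p = 0.0191). Pdgfc and Pdgfb thus moved in opposite directions, and Igfbp4 rose by 1.19 on the log2 scale. Without rhWnt3a 1, 2 genes of this list fell. Leaving out 1 library ended the call for Bmp6 without vehicle 2 or rhWnt3a 1 or 3 (adjusted p up to 0.0690) and Pdgfb without vehicle 1 or 2 or rhWnt3a 1 or 2 (adjusted p up to 0.0893). The call was also lost for Fgf7 and Dusp6 without rhWnt3a 1 (adjusted p up to 0.0570 and 0.0552) and Igfbp4 without vehicle 1 or 2 or rhWnt3a 2 or 3 (adjusted p up to 0.0979).

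Notch and Hedgehog genes gave 1 rise (5.88%) and 4 falls (23.5%) among 17 tested, against 2.92% and 5.86% of all tested genes. Notch3, a receptor of perivascular cells, had 25, 30 and 18 counts with vehicle and 124, 75 and 135 with rhWnt3a (log2 fold change 2.16, SE 0.44, adjusted p = 0.0123 by edgeR). Lfng, which modifies Notch receptors, had counts of 312, 305 and 383 with vehicle against 101, 143 and 105 (log2 fold change −1.55, SE 0.19, adjusted p = 0.000731). Gli1, the target by which Hedgehog activity is commonly read, had 48, 30 and 31 counts with vehicle and 9, 5 and 13 with rhWnt3a (log2 fold change −2.03, SE 0.39, adjusted p = 0.00990). Notch3 was thus high and Lfng and Gli1 low in the rhWnt3a libraries. The coreceptor genes Boc and Gas1 fell as well, Gas1 from 23751, 25510 and 19922 to 5846, 8906 and 6570 (log2 fold changes −1.58 and −1.74). In these 5 genes the groups did not overlap, whereas Ptch1, a further Hedgehog target, was level at −0.06 (adjusted p = 0.927). A fit short of 1 library lost the call for Notch3 without vehicle 1 or rhWnt3a 3 (adjusted p up to 0.0572).

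Genes of cell division were mixed. Of 30 tested, 10 fell and Mcm2 and Mcm4, genes of replication licensing, rose, with a median of −0.84. Mki67, the common marker of cycling cells, had 374, 276 and 140 counts with vehicle and 72, 41 and 103 with rhWnt3a (log2 fold change −1.91, SE 0.42, adjusted p = 0.0176 by edgeR). Bub1, of the spindle checkpoint, had counts of 59, 37 and 45 with vehicle against 12, 21 and 11 (log2 fold change −1.71, SE 0.40, adjusted p = 0.0257), and Cenpe, a kinetochore motor gene, 198, 105 and 108 against 44, 28 and 62 (log2 fold change −1.64, SE 0.36, adjusted p = 0.0191). Mcm2 had 500, 476 and 685 counts with vehicle and 1008, 955 and 1049 with rhWnt3a (log2 fold change 0.84, SE 0.14, adjusted p = 0.00394) and Mcm4 322, 312 and 351 against 485, 482 and 492. Mki67, Bub1 and Cenpe were low in the rhWnt3a libraries and Mcm2 and Mcm4 high, while 18 genes of the list were not called. The summed level of the 30 genes was 456, 411 and 460 CPM with vehicle and 447, 474 and 462 with rhWnt3a, led by the nucleotide reductase gene Rrm1, with overlap between groups. The number that fell depended on single libraries: it was 1, 3 and 7 without vehicle 1, 2 or 3, 2, 5 and 3 without rhWnt3a 1, 2 or 3, and 6 with the apart pair left out, while 1 gene rose without vehicle 1 or 2 or rhWnt3a 1 or 3. Of 15 tested G1 cyclins and CDK inhibitors Cdk6 alone was called, with 925, 719 and 661 counts with vehicle and 1704, 1012 and 1675 with rhWnt3a (log2 fold change 0.90, SE 0.24, adjusted p = 0.0428), and the median was 0.12. In fits that left out 1 library, the call was lost for Mki67 without vehicle 1 or 2 or rhWnt3a 1 (adjusted p up to 0.0696) and Bub1 and Mcm4 without vehicle 1 or 2 or rhWnt3a 1 or 3 (adjusted p up to 0.115 and 0.0875). Likewise it was lost for Cenpe without vehicle 1 or rhWnt3a 1 (adjusted p up to 0.0739) and Cdk6 in each but that without rhWnt3a 2 (adjusted p up to 0.159).

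In metabolism the lists moved to different degrees. Of 22 core glycolysis genes 5 rose and Aldoc fell, with a median of 0.56, and 0.58 and 0.46 in the other 4 libraries and the apart pair. Pdk1, which holds pyruvate back from the mitochondrion, had 375, 336 and 357 counts with vehicle and 793, 774 and 827 with rhWnt3a (log2 fold change 1.14, SE 0.13, adjusted p = 0.000555 by edgeR). Pfkl, of the committed step, had counts of 1736, 1676 and 2396 with vehicle against 3655, 4060 and 4222 (log2 fold change 1.02, SE 0.15, adjusted p = 0.00225), and Gpi1, of the step before it, 4886, 4905 and 6091 against 9942, 12043 and 10295 (log2 fold change 0.996, SE 0.14, adjusted p = 0.00139). Pgk1 and Hk2 rose by 0.94 and 0.63 on the log2 scale, and near-identical copies exist for 68.8% of Pgk1 and 27.3% of Gpi1. Aldoc went from 18, 11 and 26 counts to 0, 1 and 0, 56.1-fold by counting (95% interval 9.66 to 2255). The glucose transporter gene Slc2a1 had 1312, 1349 and 1958 counts with vehicle and 1555, 1712 and 1531 with rhWnt3a (log2 fold change 0.03, adjusted p = 0.950), overlapping between groups. Without vehicle 1 or 2 or rhWnt3a 3, 3 glycolysis genes rose. Of 23 tricarboxylic acid cycle genes Idh2 alone was called, with counts of 3370, 3412 and 3698 with vehicle against 2036, 3023 and 2135 (log2 fold change −0.58, SE 0.15, adjusted p = 0.0413). No gene was called by edgeR among 26 nuclear genes of the respiratory chain, nor among 12 tested genes of the mitochondrial genome. Their medians were 0.29 and 0.04, against 0.17 and −0.01 in the other 4 libraries and 0.40 and 0.27 in the apart pair. When 1 library was left out, the call was lost for Pgk1 without vehicle 1 or 2 or rhWnt3a 2 or 3 (adjusted p up to 0.0986) and Hk2 and Idh2 in each but that without rhWnt3a 2 (adjusted p up to 0.142 and 0.227). It was further lost for Aldoc without rhWnt3a 1 or 3 (adjusted p up to 0.0552).

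Of 27 genes for cholesterol and fatty acid synthesis 7 fell and none rose, with a median of −0.60. Hsd17b7, of a late step to cholesterol, had 2326, 1797 and 1309 counts with vehicle and 893, 898 and 812 with rhWnt3a (log2 fold change −1.10, SE 0.21, adjusted p = 0.00860 by edgeR). Pmvk, of the mevalonate route, had counts of 281, 191 and 144 with vehicle against 51, 82 and 46 (log2 fold change −1.83, SE 0.31, adjusted p = 0.00462), and Nsdhl, of a late step, 913, 702 and 611 against 346, 437 and 349 (log2 fold change −1.02, SE 0.20, adjusted p = 0.0116). The rhWnt3a libraries were below the vehicle libraries in all 3. This list moved with the apart libraries: its median was −0.80 in the other 4 libraries and −0.13 in the apart pair, and 14 genes fell with that pair left out. Without vehicle 3, 15 fell, but without vehicle 1 or 2 the number was 3 and 2, and without rhWnt3a 1 or 3 it was 2. Among 21 genes of amino acid supply and ATF4 targets, Psat1, of serine synthesis, alone was called, with 5421, 5645 and 7220 counts with vehicle and 10182, 12078 and 10246 with rhWnt3a (log2 fold change 0.80, SE 0.19, adjusted p = 0.0249), and Atf4 had a log2 fold change of −0.34 (adjusted p = 0.494). Without vehicle 3, 2 of these genes rose, and 3 with the apart pair left out. Of 25 NRF2 targets and glutathione enzymes 1 rose (4%) and 3 fell (12%), against 2.92% and 5.86% of all tested genes. Txnrd1, which keeps thioredoxin reduced, had counts of 4209, 4591 and 6274 with vehicle against 8823, 9014 and 8881 (log2 fold change 0.81, SE 0.16, adjusted p = 0.00962). Gstt1, a glutathione transferase gene, had 55, 71 and 69 counts with vehicle and 12, 23 and 12 with rhWnt3a (log2 fold change −2.08, SE 0.36, adjusted p = 0.00503), and Gstm1, with a near-identical copy over 51.0% of its length, and Sod3 fell by 0.90 and 0.93 on the log2 scale. Of the NRF2 targets best known, Nqo1 and Hmox1 had log2 fold changes of −0.64 and −0.59 and were not called, and without vehicle 3, or without the apart pair, 2 genes of the list rose. With 1 library left out, the call was lost for Nsdhl without vehicle 2 or rhWnt3a 1 or 3 (adjusted p up to 0.0689) and Elovl6 and Psat1 in each but that without vehicle 3 (adjusted p up to 0.142 and 0.0988). The call was also lost for Sod3 in each but that without rhWnt3a 2 (adjusted p up to 0.136).

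Of 35 tested genes for ligands and receptors that guide axons and other migrating cells 5 rose (14.3%) and 9 fell (25.7%). Of all tested genes 2.92% rose and 5.86% fell. Epha4, an ephrin receptor gene, had 763, 729 and 685 counts with vehicle and 208, 176 and 199 with rhWnt3a (log2 fold change −1.93, SE 0.15, adjusted p = 7.35e-05 by edgeR), while the related Ephb2 had counts of 99, 124 and 83 with vehicle against 418, 230 and 479 (log2 fold change 1.85, SE 0.34, adjusted p = 0.00694). The ligand Ntn1, of netrin, had 398, 424 and 444 counts with vehicle and 1277, 963 and 1327 with rhWnt3a (log2 fold change 1.47, SE 0.22, adjusted p = 0.00210), and Efnb2 137, 124 and 164 against 344, 322 and 385 (log2 fold change 1.28, SE 0.17, adjusted p = 0.00102). Groups were apart in each of these, with Epha4 low and the other 3 high in the rhWnt3a libraries. Slit2 rose by 1.05 on the log2 scale. Among semaphorins Sema3c rose (0.96) and 5 fell, among them Sema3d, with counts of 9806, 8187 and 5729 with vehicle against 2716, 2469 and 2903 (log2 fold change −1.59, SE 0.28, adjusted p = 0.00553). The others were Sema3b, Sema3f, Sema3e and Sema3a (log2 fold changes −1.52, −1.32, −0.81 and −0.51). Without vehicle 1 or rhWnt3a 1 or 2, 5 genes of this list fell. Of 22 tested Hox genes, which set position along the body, Hoxb9 and Hoxc6 rose and none fell, and the median was 0.35. Hoxb9 had 20, 13 and 16 counts with vehicle and 82, 100 and 64 with rhWnt3a (log2 fold change 2.29, SE 0.30, adjusted p = 0.00105), and Hoxc6 363, 325 and 288 against 587, 719 and 626 (log2 fold change 0.95, SE 0.18, adjusted p = 0.00766). In retinoid and steroid response, 2 of 13 tested genes rose and 2 fell (15.4% each, against 2.92% and 5.86% of all tested genes). Dhrs3, which reduces retinal, had 264, 245 and 326 counts with vehicle and 762, 898 and 847 with rhWnt3a (log2 fold change 1.56, SE 0.12, adjusted p = 7.32e-05). Fkbp5, a glucocorticoid target, had counts of 829, 700 and 623 with vehicle against 219, 260 and 241 (log2 fold change −1.62, SE 0.16, adjusted p = 0.000247), and Cyp26b1, which breaks down retinoic acid, fell by 1.60. Dhrs3 was thus high in the rhWnt3a libraries and Fkbp5 and Cyp26b1 low. Without vehicle 1 or 2 or rhWnt3a 1 or 2, 1 gene of this list fell. Leaving out 1 library ended the call for Sema3b without vehicle 1 or rhWnt3a 1 or 2 (adjusted p up to 0.0751) and Sema3a in each such fit (adjusted p up to 0.133). Likewise it was lost for Cyp26b1 without vehicle 1 or 2 or rhWnt3a 1 or 2 (adjusted p up to 0.153). With the apart pair left out, the call was lost for Sema3b, Sema3a and Cyp26b1 (adjusted p = 0.0752, 0.114 and 0.0909).

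Pigment cell and nerve cell genes were present in part. Of 14 pigment cell genes 6 were tested, with Tyrp1, Pmel and Mlana lower and Gpnmb higher. Mlana had 48, 45 and 59 counts with vehicle and 7, 22 and 14 with rhWnt3a (log2 fold change −1.85, SE 0.50, adjusted p = 0.0461 by edgeR) and Pmel 17, 14 and 14 against 6, 6 and 2 (log2 fold change −1.69, SE 0.43, adjusted p = 0.0360), while Tyr and Sox10, which pigment cells need, had no count and Dct at most 1. Gpnmb, a glycoprotein gene also of bone cells and macrophages, had counts of 2140, 2196 and 2570 with vehicle against 3527, 3691 and 3897 (log2 fold change 0.66, SE 0.12, adjusted p = 0.00836) and led the sum of the list, 178, 188 and 184 CPM with vehicle and 228, 221 and 246 with rhWnt3a. Without vehicle 1, 2 or 3 or rhWnt3a 1 or 3, and without the apart pair, 1 of the pigment cell genes fell. Of 9 tested nerve cell genes Ppp1r1b and Syt1 fell and Ncam1 rose. Syt1, of synaptic vesicles, had 81, 73 and 46 counts with vehicle and 24, 24 and 23 with rhWnt3a (log2 fold change −1.53, SE 0.33, adjusted p = 0.0173), and the adhesion gene Ncam1 448, 428 and 439 against 1181, 822 and 1025 (log2 fold change 1.18, SE 0.24, adjusted p = 0.0129). Without vehicle 1 or 2 or rhWnt3a 1 or 3, 1 nerve cell gene fell. The summed level of 23 nerve cell genes was 483, 442 and 306 CPM with vehicle and 346, 266 and 324 with rhWnt3a, led by Map2, with overlap between groups. The endothelial marker Emcn went from 19, 34 and 22 counts to 0, 0 and 0, at least 8.58-fold lower, again with 3 counts per library as the floor. Whether other cells contributed to these levels was not tested. A fit short of 1 library lost the call for Pmel in each such fit (adjusted p up to 0.141) and Mlana in each but that without rhWnt3a 2 (adjusted p up to 0.175). It was further lost for Gpnmb without rhWnt3a 3 (adjusted p up to 0.0519) and Syt1 in each but that without vehicle 3 (adjusted p up to 0.0796). The call was also lost for Ncam1 without vehicle 1 or 2 or rhWnt3a 1 (adjusted p up to 0.0591). Leaving out the apart pair ended the call for Pmel and Mlana (adjusted p = 0.0595 and 0.0530).

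Of 927 tested genes that the deposited annotation gives as transcription factors 34 rose (3.67%) and 44 fell (4.75%), against 2.92% and 5.86% of all tested genes. With the apart pair left out 45 rose and 35 fell, so that rises then outnumbered falls. Ahr, the receptor of dioxins and related ligands, had 86, 131 and 184 counts with vehicle and 1401, 1244 and 1378 with rhWnt3a (log2 fold change 3.31, SE 0.24, adjusted p = 4.24e-05 by edgeR). Vdr, the vitamin D receptor gene, had counts of 375, 397 and 509 with vehicle against 2127, 1355 and 1990 (log2 fold change 2.08, SE 0.31, adjusted p = 0.00218). Esr1, the gene of an oestrogen receptor, had 112, 123 and 110 counts with vehicle and 374, 331 and 384 with rhWnt3a (log2 fold change 1.63, SE 0.17, adjusted p = 0.000311). All rhWnt3a libraries of these 3 receptors were above all vehicle libraries, and rhWnt3a replicate 2 was the lowest of its group for each. Hic1, a repressor gene, had counts of 112, 163 and 269 with vehicle against 683, 759 and 765 (log2 fold change 2.01, adjusted p = 0.0103), and Nr2f1, of an orphan nuclear receptor, 321, 323 and 337 against 994, 1026 and 991 (log2 fold change 1.59, adjusted p = 0.000230). These too were high in every rhWnt3a library. The span of Nr2f1 overlaps that of A830082K12Rik on the other strand, also called higher (log2 fold change 1.55), and their reads may be mixed. Among falls, Nr4a1, an early response gene and orphan receptor, had 748, 701 and 653 counts with vehicle and 106, 141 and 108 with rhWnt3a (log2 fold change −2.60, SE 0.15, adjusted p = 1.64e-05). Atoh8, of the bHLH family, had counts of 84, 62 and 59 with vehicle against 14, 8 and 6 (log2 fold change −2.89, SE 0.39, adjusted p = 0.00121). Fos and Egr1, early response genes, fell from 112, 125 and 231 to 45, 51 and 61 and from 1790, 1823 and 2616 to 1206, 979 and 1391 (log2 fold changes −1.59 and −0.82; −0.52 for Egr1 without the apart pair). Vehicle and rhWnt3a libraries were apart in all of these, as in 1229 of the 1230 called genes. Relb and Nfkb2, of the noncanonical NF-κB branch, fell by 0.71 and 0.73 on the log2 scale. Without vehicle 1, 2 or 3 the rises were 17, 18 and 33 and the falls 25, 24 and 43, and without rhWnt3a 1, 2 or 3 the rises were 20, 37 and 17 and the falls 22, 29 and 27. In fits that left out 1 library, the call was lost for Hic1 without vehicle 1 or 2 (adjusted p up to 0.0542) and Egr1 without vehicle 2 or rhWnt3a 1 (adjusted p up to 0.0690). Likewise it was lost for Relb without vehicle 3 or rhWnt3a 1, 2 or 3 (adjusted p up to 0.134) and Nfkb2 without vehicle 2 or rhWnt3a 1 or 3 (adjusted p up to 0.0645). Without the apart pair, no call was made for Egr1 and Nfkb2 (adjusted p = 0.0527 and 0.0604).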

How the data were processed

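Per the submitters' notes, polyadenylated RNA was sequenced, reads were processed with CASAVA and fastp and aligned to mm10 with HISAT2 2.0.5, and featureCounts 1.5.0-p3 counted reads per gene; strandedness and annotation are not given in the sources used here. The deposited table holds a count for each gene and library, in whole numbers, made by the authors. Its group means, fold changes and p-values for the authors' own comparisons were not used. Genes with enough counts by the default rule of filterByExpr (minimum count 10, total 15) were kept, libraries were scaled by TMM, and 1 model of 3 groups over 9 libraries was fitted in edgeR 4.0.16 (R 4.3.3), with the rhWnt3a minus vehicle contrast tested. CPM used the scaled totals. Alternatives used limma 3.58.1 and DESeq2 1.42.0, other filters, scalings and thresholds, and fits without libraries. Genes were named as the 10 largest changes per direction with average log2 CPM above 1, the 5 largest in CPM, the switched genes and up to 4 called members per list and direction, with other members given for contrast. Samples and the 40 lists were chosen with earlier results of these data known. Transcription factor and noncoding classes came from the deposited annotation, and names within them were chosen after values were seen. Copies and overlaps were sought with BLAST 2.17.0 in GENCODE M21. The code was tested on simulated data.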

Additional observations from a re-analysis of the deposited data

How the results depend on the processing

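Each library left out in turn gave 716 to 1315 changed genes, 217 to 421 higher and 470 to 896 lower, in fits that hold fewer samples by construction. The switched-on count was then 5 to 6, the switched-off count 10 to 15 and their sum 16 to 20. With limma voom and quality weights 2855 genes changed, 1194 higher and 1661 lower; at unadjusted p under 0.05 the counts were 2155, 809 and 1346; with a log2 fold change over 1 they were 796, 212 and 584. With a replicate block, which pairs samples by number, 809 genes changed, 233 higher and 576 lower. Correlations between same-numbered samples within the 3 pairs were 0.44, −0.49 and −0.49. Vehicle 3 and rhWnt3a 2, which stood apart and carry different numbers, set most of the variance behind these values. The correlations therefore cannot tell whether same-numbered samples share more than a number. Other scaling, filters, DESeq2, the 6 libraries alone, no fold threshold and an offset for gene length added after seeing the data kept the count of changed genes within 1.5 times, at 976 to 1552; the cause of the differences was not tested. No gene called changed sign in any setting that tested it, which the separate ranges of nearly all called genes largely fixed beforehand. Of 4284 values of the 229 genes named by rule, 3875 were still called and 409 kept their direction without a call; 142 genes were called in every setting that tested them and 94 in all settings. With at most 1 count against at least 10, 3 genes were switched on and 11 off; with at most 5 against at least 50, 4 and 5, in sum 9; with scaled counts, 2 and 9. Depth limits the low end: genes with fewer than about 10 counts in a library were mostly not tested, and for switched genes the ratio rests on a few reads. The 3 libraries per group limit every call.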

Other observations

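Among 1241 tested genes of the long noncoding and TEC classes of the deposited annotation, 25 rose (2.01%) and 23 fell (1.85%) with rhWnt3a, against 2.92% and 5.86% of all tested genes, with a median log2 fold change of 0.08. Membership rests on the annotation's label alone, and the falls include Ifi30, labelled a processed transcript (log2 fold change −1.49). Gm10125, a processed transcript, had 27, 22 and 22 counts with vehicle and 106, 118 and 105 with rhWnt3a (log2 fold change 2.17, SE 0.27, adjusted p = 0.000718 by edgeR). F730043M19Rik, which shares a promoter region with a gene on the other strand by its class, had counts of 23, 21 and 19 with vehicle against 96, 67 and 109 (log2 fold change 2.08, SE 0.27, adjusted p = 0.00111). Both were higher in every rhWnt3a library than in any vehicle library. The span of Gm10125 overlaps that of Zeb1 on the other strand, also called higher (log2 fold change 0.995), and their reads may be mixed. Gm567, a lincRNA gene, had 121, 118 and 88 counts with vehicle and 10, 21 and 14 with rhWnt3a (log2 fold change −2.90, SE 0.39, adjusted p = 0.00127), and E230016K23Rik, a processed transcript, 63, 47 and 41 against 4, 7 and 7 (log2 fold change −3.08, SE 0.37, adjusted p = 0.000676). Dio3os, which lies beside the thyroid hormone deiodinase gene Dio3, had counts of 67, 47 and 52 with vehicle against 8, 16 and 15 (log2 fold change −2.11, SE 0.40, adjusted p = 0.00854). For these 3 genes all rhWnt3a libraries were below all vehicle libraries. Without vehicle 1, 2 or 3 the rises were 15, 14 and 21 and the falls 11, 11 and 40, and without rhWnt3a 1, 2 or 3 the rises were 12, 24 and 13 and the falls 13, 19 and 12. With vehicle 3 and rhWnt3a 2 both left out 30 rose and 36 fell. Of 11924 tested protein-coding genes 378 rose and 786 fell.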
